A study of Mus musculus with 6 samples.

Results

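The 10 genes described here are the transcription factor gene Atf4, 6 genes of serine, glycine and asparagine synthesis (Phgdh, Psat1, Psph, Shmt2, Mthfd2 and Asns) and 3 stress targets of ATF4 (Trib3, Chac1 and Ddit3). They were taken by symbol from tables of 32285 genes, and all 10 were found and passed the filter on low values. They were chosen by a rule that had measured values of these libraries in view (their levels by layer, cycling state and Cyto-ID group may all have been used), so their levels by layer, cell-cycle phase and group are given as descriptions that support nothing further. The libraries came from organoids of mouse esophageal epithelium (strain C57BL6, with no engineered allele named), a squamous epithelium in which dividing basal cells give rise to suprabasal and then superficial cells. The founders were live (DAPI negative) cells that carried integrin-b1, an adhesion receptor of the basal layer, and were sorted as low or high for Cyto-ID, a dye that stains autophagic vesicles. Both groups were grown in Matrigel for 15 days in the same medium, which contained the antioxidant N-acetyl-L-cysteine, a precursor of glutathione. Each group had 3 libraries, with the labels F2, M3 and F6, and the question was how cells grown from the 2 kinds of founder differ. The sort was made on the founders only, so no value below is that of a Cyto-ID Low or High cell itself.

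Serine is made from an intermediate of glycolysis in 3 steps, by PHGDH, PSAT1 and PSPH in turn. SHMT2 then splits serine into glycine and a one-carbon unit in mitochondria, MTHFD2 oxidises the folate that carries this unit, and the units feed purine and thymidylate synthesis, which dividing cells need. ASNS makes asparagine from aspartate. ATF4 is produced mainly through increased translation of its mRNA when the initiation factor eIF2 is phosphorylated, as in amino acid shortage or stress in the endoplasmic reticulum, so the Atf4 mRNA level is not a measure of ATF4 activity. ATF4 is known to activate the genes above and also Trib3 (a pseudokinase that restrains ATF4), Chac1 (an enzyme that degrades glutathione) and Ddit3 (the stress factor CHOP).

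A known binding element of ATF4 with C/EBP partners carries the letters TGATGNAA, and the promoter windows of the 10 genes were searched for them on both strands. The windows were RefSeq's on GRCm38.p6, from 250 bases before to 50 bases after a gene's start, and all 10 genes had at least 1. Of the 10 genes, 3 held the letters: Asns, Trib3 and Chac1. Among all windows of this length, 3.97% (1304 of 32851) held them, or 4.51% of gene symbols. The 3 stretches of 30 bases are printed because they show where the element's letters lie in these genes. They are read 5′ to 3′ on the gene's strand, with the match in capitals (in Trib3 and Chac1 the match is on the opposite strand, so the capitals are its reverse complement).
Asns: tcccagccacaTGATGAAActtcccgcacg
Trib3: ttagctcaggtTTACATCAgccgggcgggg
Chac1: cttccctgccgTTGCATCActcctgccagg
The Asns stretch is chr6:7693214-7693243 on the minus strand, and its match begins 23 bases before RefSeq's start. The Trib3 stretch is chr2:152344028-152344057 on the minus strand, with the match beginning at base 15, counting RefSeq's first transcribed base as base 1. The Chac1 stretch is chr2:119351038-119351067 on the plus strand, with the match beginning 193 bases before RefSeq's start. RefSeq's starts differ from those of the GENCODE gene spans given next, by which the Asns match lies inside the gene and the Trib3 match before it. A match is a description of the letters and not a measured binding site, and the absence of a match in the other 7 genes says only that these letters are not in those windows.

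In the annotation of the GRCm38 build (GENCODE M21), Phgdh lies on chromosome 3 (98313170 to 98339990), Psat1 on 19 (15904678 to 15947337) and Psph on 5 (129765558 to 129787449). Shmt2 (127517123 to 127522444) and Ddit3 (127290774 to 127296288) lie on chromosome 10, and Mthfd2 (83305691 to 83325908) and Asns (7675169 to 7693254) on 6. Trib3 (152337422 to 152344032) and Chac1 (119351229 to 119354381) lie on chromosome 2, and Atf4 on 15 (80255184 to 80257541). Ddit3 has a second annotated gene entry inside its span, and Mthfd2 also overlaps another annotated locus, so reads of these 2 genes could be shared with a neighbour.

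Of 26808 barcodes, 25154 had at least 500 detected genes and were kept, 2667 to 5617 in each library. Depth differed widely: the kept cells held 8231527 to 48873796 unique molecular identifiers (UMIs) per library, with medians of 7789, 6080 and 2716 UMIs per cell in Low F2, M3 and F6 and of 10038, 2357 and 1940.5 in High F2, M3 and F6. Pairs of libraries shared 0 to 8 barcodes. Clustering gave 10 clusters, of which 7 were named from markers: 3 as basal-like, 2 as proliferating-like, 1 as superficial-like and 1 as suprabasal-like. A cluster led by Krt12 and one led by Il33 stayed unnamed, as did a cluster of 335 shallow cells led by Ifit3b. Marker lists of fibroblasts, immune cells, endothelium, melanocytes or nerve, and columnar epithelium summed to at most 4.95 CPM (a gene's UMIs relative to all UMIs of a cell, 100 times the deposited scale per 10000) in every library. The summed markers of proliferating cells were 140.9 to 310.9 CPM in Low and 348.4 to 435.4 CPM in High, and those of superficial cells reached higher values in Low. Nothing in the labels says that the libraries of a group came from separate animals, so p-values measure the spread between libraries only.

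Over all cells, 5 of the 6 synthesis enzymes had higher levels in each Cyto-ID High library than in any Cyto-ID Low library, at mean ratios of 1.79 to 2.54, while Atf4 and the 3 stress targets had mean ratios of 0.869 to 1.08. Levels are the mean CPM over the cells of a library, which cannot tell more expressing cells from more RNA per cell. Levels, and whether groups overlap, were taken without the scaling between libraries used in the fits. The scaling factors over all cells ran from 0.894 (High M3) to 1.09 (High F2), and overlap after scaling was not examined. The mix of cells also differed between the groups: proliferating-like cells made up 8.85% to 11.4% of cells in Low and 14.6% to 21.4% in High, and suprabasal-like cells 0.787% to 2.87% in Low and 8.52% to 13.2% in High. The part of this mix in the levels over all cells was not tested beyond the values within classes and with equal cluster weights given below. The count of 5 in 10 is set beside 4.48% of all 11645 genes tested whose High libraries all lay above all Low libraries, and nothing is read from it because this contrast may have been used to choose the genes.

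Phgdh, the first enzyme of serine synthesis, was at 25.8, 45.7 and 22.9 CPM in Low F2, M3 and F6 and at 78.8, 104.2 and 56.9 CPM in High F2, M3 and F6. The lowest High library was above the highest Low library, and M3 was the highest library of each group. Psat1, the aminotransferase of the second step, was at 15.4, 23.5 and 15.8 CPM in Low and at 35.4, 38.4 and 38.7 CPM in High. Psph, the phosphatase that releases serine, was at 29.5, 38.5 and 21.5 CPM in Low and at 58.3, 60.4 and 50.9 CPM in High. For both genes the 3 High libraries lay close together and clear of the Low libraries.

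Mthfd2 was at 9.50, 11.2 and 8.25 CPM in Low F2, M3 and F6 and at 20.5, 20.8 and 20.5 CPM in High, so the High libraries were nearly level (mean 20.6 ± 0.201 CPM, SD, n = 3) and the groups did not overlap. Shmt2 was at 27.9, 51.7 and 33.4 CPM in Low and at 43.4, 73.2 and 46.5 CPM in High, and its groups overlapped because Low M3 was above 2 of the High libraries. Within each label the High library was nevertheless the higher one, in 3 of 3 pairs. Asns was at 24.5, 24.8 and 20.3 CPM in Low and at 44.4, 45.4 and 34.4 CPM in High, without overlap.

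**Figure D1:**
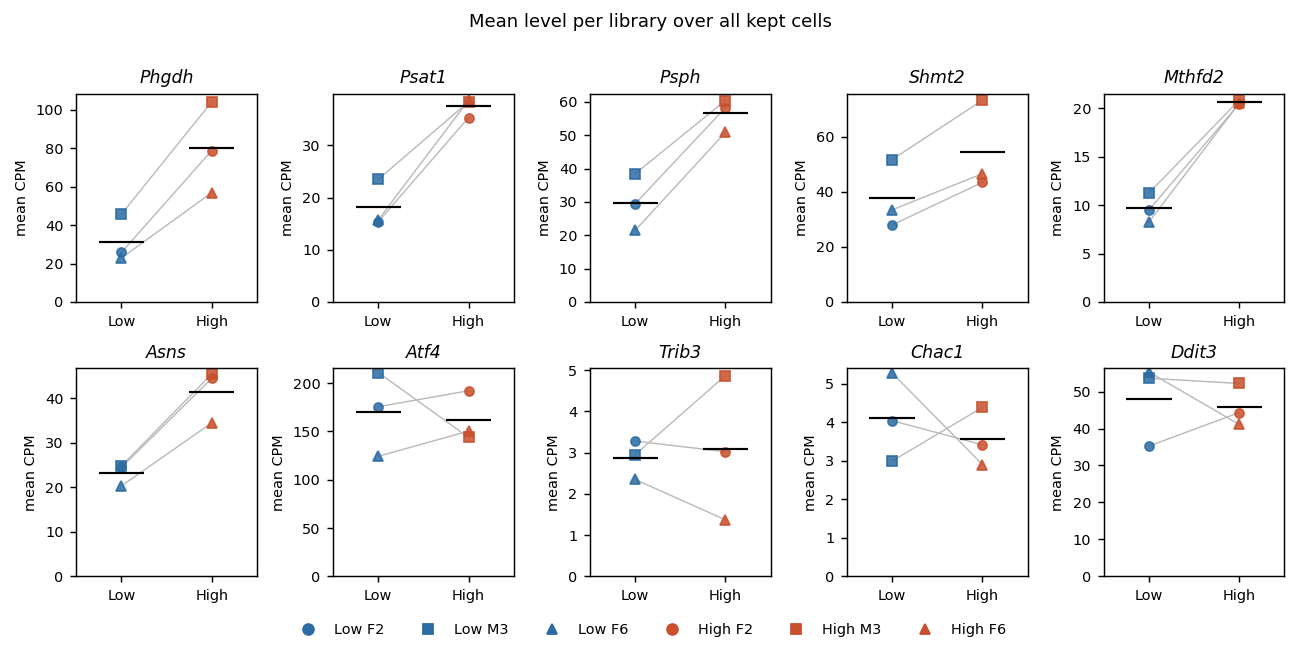
Mean CPM of each gene over all kept cells (vertical axes, from 0) in Cyto-ID Low and High libraries (1 point per library, shapes for the labels F2, M3 and F6, grey lines joining libraries with the same label, black bars for group means). The groups do not overlap for Phgdh, Psat1, Psph, Mthfd2 and Asns and overlap for the other 5 genes.

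Atf4 was at 175.7, 211.1 and 124.3 CPM in Low and at 192.2, 143.8 and 150.4 CPM in High, so the High libraries lay within the range of the Low libraries. Ddit3 was at 35.3, 53.6 and 55.3 CPM in Low and at 44.3, 52.2 and 41.1 CPM in High, again without separation. Trib3 and Chac1 were near the limit of detection. Trib3 was at 3.28, 2.95 and 2.35 CPM in Low and at 3.02, 4.87 and 1.37 CPM in High, from 14 to 162 UMIs per library. Chac1 was at 4.04, 2.99 and 5.28 CPM in Low and at 3.41, 4.38 and 2.90 CPM in High, from 35 to 181 UMIs.

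In the fit over all genes (limma on log2(CPM + 1), which understates changes of low genes), no member of the 10 passed an adjusted p of 0.05, and 0.163% of all genes did (19 of 11645, all higher in High). The fitted differences of High minus Low were 1.46 ± 0.31 (SE) for Phgdh, 1.14 ± 0.23 for Psat1, 1.05 ± 0.23 for Psph, 1.14 ± 0.19 for Mthfd2, 0.92 ± 0.19 for Asns and 0.64 ± 0.32 for Shmt2. Their Benjamini-Hochberg adjusted p-values were 0.237, 0.178, 0.244, 0.0788, 0.220 and 0.645 in that order, although at an unadjusted p the first 5 were between 0.000223 and 0.00138. The 4 other genes had differences between -0.06 and 0.08, with adjusted p-values of at least 0.960, and without scaling between libraries Atf4, Trib3 and Ddit3 turned to -0.05, -0.01 and -0.05. The median difference of the 10 genes was 0.78, against 0.00 (0.0049) over all genes tested.

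Libraries with the same label deviated together for F2 and M3. The F6 libraries did so (r = 0.15) no more than Low F2 and High F6 (0.17), so the block rests on a pairing that the values do not bear out for F6. With the label as a block the difference passed for 3 genes: Phgdh (adjusted p = 0.0191), Psat1 (0.0447) and Mthfd2 (0.0373). Psph (0.0606) and Asns (0.0792) did not pass in that fit, which called 0.55% of all genes (64 of 11645).

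The 10 genes differed strongly in where along the epithelium they were highest. Clusters were drawn from 2000 variable genes, which included 8 of the 10 genes, so the levels by class are described and not tested. By the mean of 6 libraries, Phgdh, Psat1, Shmt2 and Mthfd2 were highest in proliferating-like cells, Psph and Asns in suprabasal-like cells, Atf4 in basal-like cells and Chac1 in superficial-like cells, although not every library kept these orders.

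Phgdh averaged 131 CPM in proliferating-like cells, 69.9 in basal-like, 62.4 in suprabasal-like, 19.0 in Krt12-led, 8.61 in Il33-led and 4.598 in superficial-like cells (means of 6 libraries). Neighbours in this order kept it in 6 of 6 libraries, except basal-like over suprabasal-like (4 of 6) and suprabasal-like over Krt12-led (5 of 6). Psat1 had a similar course, from 65.7 CPM in proliferating-like to 31.4 in suprabasal-like, 31.1 in basal-like, 16.9 in Krt12-led, 5.83 in Il33-led and 4.46 in superficial-like cells. Suprabasal-like and basal-like cells could not be ordered for Psat1 (3 of 6 libraries), nor clearly Il33-led and superficial-like cells (4 of 6).

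Psph, the last enzyme of the same pathway, was instead highest in suprabasal-like cells at 94.7 CPM, above proliferating-like cells at 71.3 CPM in 4 of 6 libraries. It was at 42.4 CPM in Krt12-led, 35.3 in basal-like, 31.9 in Il33-led and 15.9 in superficial-like cells. On the log2 scale superficial-like minus basal-like was -1.11, but -0.43 and -0.34 at clustering resolutions of 0.3 and 1.0. At both of these resolutions the superficial-like class also held a cluster led by Il33, so it was not the same class. Asns was likewise highest in suprabasal-like cells (70.9 CPM), above proliferating-like cells (48.4 CPM) in 5 of 6 libraries. It then ran through basal-like (33.4), Krt12-led (20.7), Il33-led (17.9) and superficial-like cells (17.5), and the last 2 did not keep their order (2 of 6).

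Shmt2 decreased in mean level from 83.1 CPM in proliferating-like through 53.9 in basal-like, 43.9 in Krt12-led, 40.4 in suprabasal-like and 22.7 in Il33-led to 7.96 in superficial-like cells. On the log2 scale superficial-like minus basal-like was -2.88 for Shmt2, but -1.69 and -1.98 at the other resolutions. Mthfd2 was at 32.3 CPM in proliferating-like and 23.4 in suprabasal-like cells, an order kept in only 3 of 6 libraries, and between 9.05 and 11.8 CPM in all other classes, whose order varied between libraries. Values for suprabasal-like cells of Low F6 rest on 21 cells, against 66 to 591 in the other libraries.

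Atf4 was nearly level from basal-like (194.4 CPM) through proliferating-like (183) and Krt12-led cells (180.3), with neighbours in that order in 4 of 6 libraries. It was at 151 CPM in suprabasal-like, 145 in Il33-led and 80.6 in superficial-like cells, and the last step was downward in 6 of 6 libraries, although superficial-like minus basal-like went from -1.28 to -0.73 and -0.88 at the other resolutions. Ddit3 was at 59.4 CPM in basal-like and 58.9 in superficial-like cells, which could not be ordered (4 of 6 libraries, and the opposite order in the Low means, 61.2 and 63.3), and lowest in Il33-led cells (24.1). Chac1 was at 11.7 CPM in superficial-like cells and at 1.87 to 4.33 CPM elsewhere, with superficial-like cells above each other class in 5 of 6 libraries. Trib3 stayed between 1.61 and 4.98 CPM, and no neighbours in its order kept it in every library. The order of Ddit3 depended on how the superficial-like class was drawn. At resolutions of 0.3 and 1.0 this class also held a cluster led by Il33. There the mean log2 level of Ddit3 in superficial-like cells was 0.54 and 0.49 below that in basal-like cells.

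**Figure D2:**
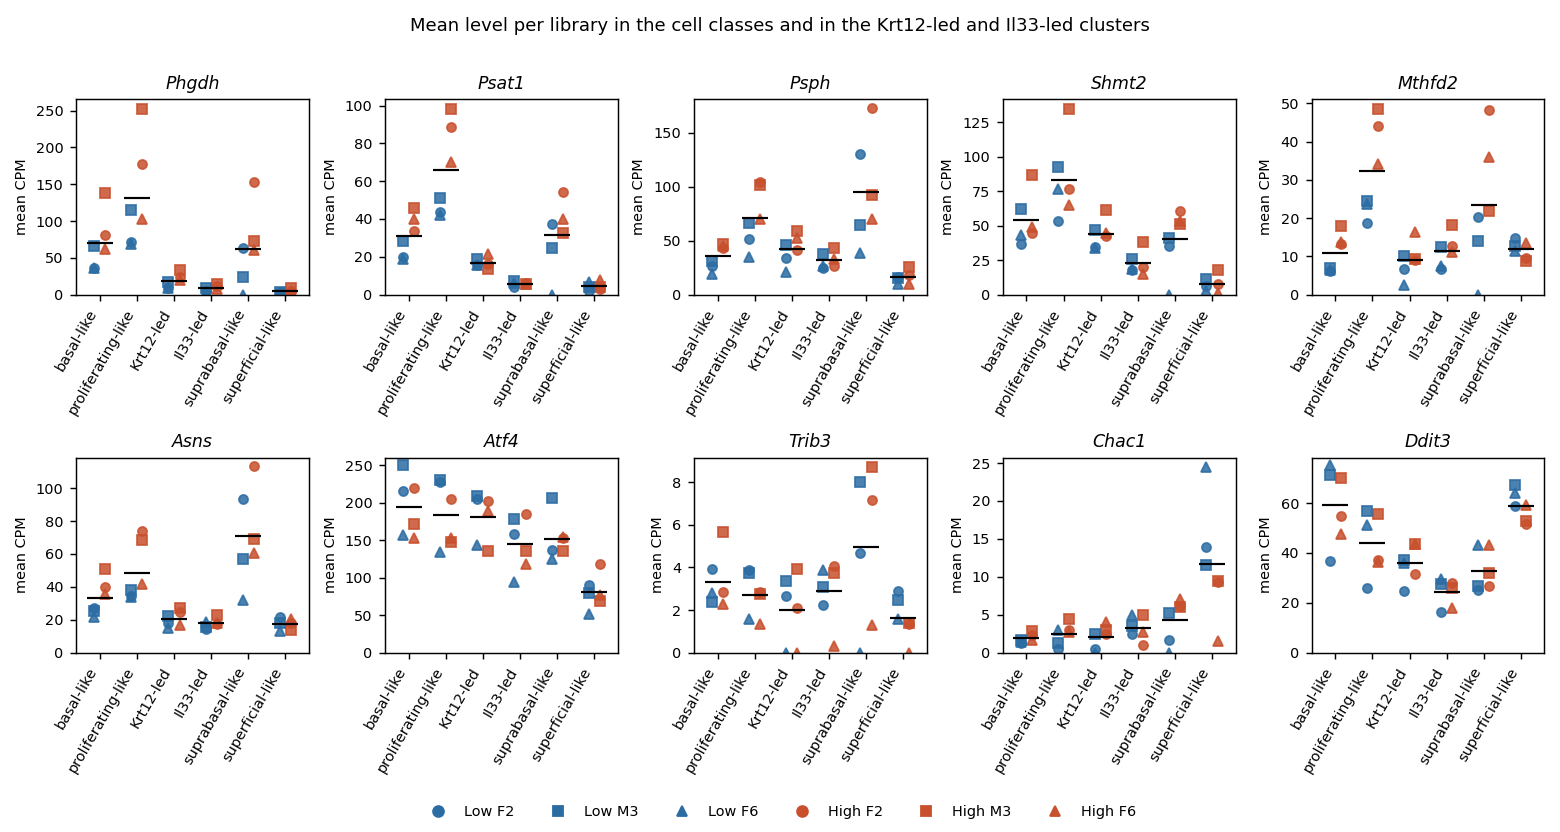
Mean CPM of each gene (vertical axes, from 0) in 4 named cell classes and 2 unnamed clusters, with 1 point per library, blue for Cyto-ID Low and orange for Cyto-ID High, and black bars for the mean of 6 libraries. The means of Phgdh, Psat1, Shmt2 and Mthfd2 peak in proliferating-like cells, those of Psph and Asns in suprabasal-like cells and that of Chac1 in superficial-like cells.

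Across 24 profiles (6 libraries by 4 named classes), the 15 pairs of synthesis enzymes correlated with a Pearson r of 0.52 to 0.95 (median 0.70). Atf4 correlated with the 6 enzymes at a median of 0.60, Trib3 at 0.54, Chac1 at -0.23 and Ddit3 at -0.29. The profiles share libraries, cells of 1 culture and depth, so these values are descriptions. One profile, that of suprabasal-like cells of Low F6, rests on 21 cells with no UMI of several of these genes, among them Phgdh and Mthfd2. Such shared zeros can raise r, and the values without this profile were not computed. Of 6910 genes averaging 10 CPM or more, those most like the mean of the 6 enzymes were Pigf (r = 0.95), Nudt5 (0.94), Ddx39 (0.93), Mrps25 (0.92) and Slc7a11 (0.92), the last of which encodes the cystine transporter and is also a target of ATF4. Those most like the mean of Trib3, Chac1 and Ddit3 were Mul1 (0.76), Derl1 (0.75), Insig2 (0.75), Tprgl (0.74) and Cyp4f13 (0.73). These 3 genes did not share a profile, with r of 0.13 for Trib3 and Chac1, 0.19 for Chac1 and Ddit3 and -0.41 for Trib3 and Ddit3. Likeness to their mean therefore says little about any of them.

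Within basal-like cells, Psat1, Psph, Mthfd2, Asns and the low-count Chac1 did not overlap between the groups, that is 5 of 10 genes against 3.47% of the 11617 genes tested. Phgdh was at 36.2, 66.0 and 36.8 CPM in Low and at 80.8, 137.7 and 62.2 CPM in High, where High F6 lay below Low M3. This order is that of unscaled levels. The fits divide levels by scaling factors, which over all cells were 0.908 for High F6 and 1.07 for Low M3. The overlap may therefore not hold after scaling, which was not examined. Mthfd2 was at 6.28, 6.98 and 6.37 CPM in Low and at 13.3, 17.9 and 13.9 CPM in High. Chac1 was at 1.29 to 1.62 CPM in Low and at 1.70 to 2.82 CPM in High, from 3 to 54 UMIs a library.

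No member passed in basal-like cells without a block, where 0.258% of genes did (30 of 11617), although with clusters drawn at a resolution of 1.0 Mthfd2 passed (1.44, adjusted p = 0.0464). At that resolution 396 cells led by U90926, Lgals1 and Vim were named fibroblast-like and so lay outside the basal-like class. At the resolution of 0.5, the fitted differences were 1.15 ± 0.33 for Phgdh, 0.98 ± 0.25 for Psat1, 1.00 ± 0.22 (0.999) for Psph, 1.24 ± 0.24 for Mthfd2, 0.91 ± 0.21 for Asns and 0.49 ± 0.32 for Shmt2, with adjusted p-values of 0.400, 0.280, 0.185, 0.0965, 0.213 and 0.802. With the label as a block, Phgdh (adjusted p = 0.0117), Psat1 (0.0370), Psph (0.0422) and Mthfd2 (0.0196) passed, and 1.27% of genes did (147 of 11617). Atf4, Trib3, Chac1 and Ddit3 had differences of -0.01, 0.27, 0.52 and 0.14 and did not pass in either fit.

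The basal-like class held 3 clusters in unlike proportions. The cluster led by Igfbp2, Adh7 and Gpnmb, in which metallothionein genes were also among the leading genes, made up 10.8%, 12.5% and 7.16% of basal-like cells in Low F2, M3 and F6 and 32.6%, 36.2% and 32.7% in High. The cluster led by Btn1a1, Mgp and Tmem176b made up 52.7% to 66.6% in Low and 44.2% to 52.1% in High, and was the largest in each library. The third, led by U90926, Tslp and Lgals1, made up the rest.

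Phgdh was at 97.6, 71.4 and 60.02 CPM in Igfbp2-led cells of Low F2, M3 and F6 and at 175, 206.7 and 117 CPM in those of High. In Btn1a1-led cells it was at 36.6, 77.0 and 40.8 CPM in Low and at 41.5, 107.4 and 41.7 CPM in High, and the groups overlapped. Phgdh was higher in Igfbp2-led than in Btn1a1-led cells in 5 of 6 libraries, with Low M3 the exception. Mthfd2 was at 12.5, 13.0 and 12.8 CPM in Low and at 25.4, 26.3 and 25.6 CPM in High among Igfbp2-led cells, although the Low F6 value rests on 1 UMI in 76 cells. Of the 6 enzymes, 4 (Phgdh, Psat1, Psph and Mthfd2) did not overlap between groups in Igfbp2-led cells, 3 (Psph, Mthfd2 and Asns) in U90926-led cells and 1 (Asns) in Btn1a1-led cells. Of all genes, 4.71%, 3.49% and 2.19% were above in every High library in these clusters, in the same order, and nothing is read from the counts. Chac1, with 1 to 19 UMIs a library in the Btn1a1-led and U90926-led clusters, was above in each High library among Btn1a1-led cells (group means of 0.871 CPM in Low and 2.63 CPM in High) and below among U90926-led cells (2.76 and 1.23 CPM), where 5.29% of all genes were below.

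When the 3 clusters were given equal weight, the basal-like difference was 0.89 for Phgdh, 0.85 for Psat1, 0.76 for Psph, 1.05 for Mthfd2 and 0.77 for Asns, and none passed (adjusted p-values from 0.524 to 0.837). Equal weights for clusters over all cells gave 1.13 for Phgdh and 1.00 (1.002) for Mthfd2 (limma, adjusted p of 0.890 and 0.341). In that fit the 21 suprabasal-like cells of Low F6, with no UMI of either gene, counted as much as any other cluster. Each difference with equal cluster weights given here was smaller than with cells weighted equally, in the same direction.

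**Figure D3:**
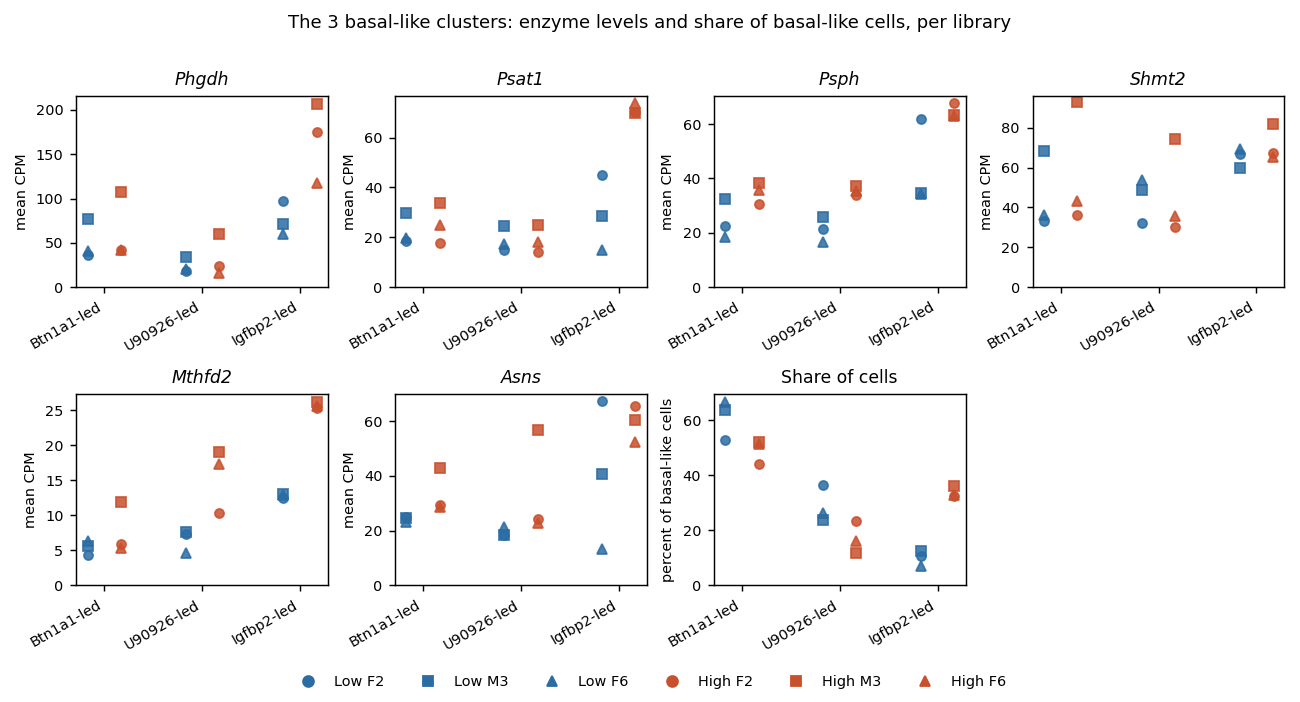
Mean CPM of the 6 synthesis genes (vertical axes, from 0) in the 3 basal-like clusters, and the share of basal-like cells in each cluster (last panel, percent), 1 point per library, blue for Cyto-ID Low and orange for Cyto-ID High. Igfbp2-led cells make up 7.16% to 12.5% of basal-like cells in Low and 32.6% to 36.2% in High, and have more Phgdh than Btn1a1-led cells in each library except Low M3.

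In proliferating-like cells, Psat1, Psph, Mthfd2 and Asns did not overlap (4 of 10 genes, against 3.17% of 11657). Psat1 was at 43.5, 51.0 and 42.1 CPM in Low and at 88.8, 98.3 and 70.3 CPM in High, a difference of 1.08 ± 0.22 with an adjusted p of 0.136. Phgdh was at 71.2, 114.5 and 68.9 CPM in Low and at 177, 252.6 and 103 CPM in High, a difference of 1.19 ± 0.32 with an adjusted p of 0.298. No member passed without a block, where 0.189% of genes did, or with it, where 0.3% did (adjusted p of 0.0579 for Phgdh and 0.0648 for Psat1). The enzymes' differences ran from 0.46 (Shmt2) to 1.19 (Phgdh), and Atf4 was at -0.01.

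In Il33-led cells, all 10 genes overlapped between groups (0 of 10 above in High, against 2.93% of 10954 genes), and Psat1 was at 3.85, 7.43 and 6.15 CPM in Low and at 5.99, 5.88 and 5.71 CPM in High. Phgdh was at 5.08, 8.82 and 3.24 CPM in Low and at 11.6, 14.8 and 8.17 CPM in High, higher in 3 of 3 pairs, with a difference of 0.98 ± 0.38 and an adjusted p of 0.998. The fit called 0.00913% of genes in this cluster (1 of 10954) and no member, and with the label as a block 0.0456% and no member. Without one library it called 0 to 2 genes, again with no member.

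In superficial-like cells, Phgdh was above in High at a very low level (0.546 to 3.98 CPM in Low and 4.88 to 9.12 CPM in High, with 1 UMI in each F6 library), 1 of 10 genes against 4.56% of 10280. Trib3 and Chac1 were below in each High library (2 of 10 genes, against 2.29% of 10280), with no UMI of Trib3 in the 174 such cells of High F6. Chac1 was at 13.9, 11.6 and 24.5 CPM in Low F2, M3 and F6 (104, 76 and 53 UMIs) and at 9.27, 9.49 and 1.51 CPM in High (43, 20 and 1 UMI). The difference of -1.47 ± 0.60 for Chac1 had an unadjusted p of 0.0321 and an adjusted p of 0.996, and without High F6 it was -0.76. Asns (-0.13 ± 0.31), Mthfd2 (-0.39 ± 0.33) and Atf4 (0.13 ± 0.29) did not pass, and with clusters drawn at a resolution of 0.3 Asns and Mthfd2 were at 0.08 and 0.18. At the resolution used throughout, 0.0195% of genes were called (2 of 10280).

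Suprabasal-like and Krt12-led cells were not tested between groups, the first because Low F6 held only 21 of them. Psph, highest in suprabasal-like cells, was there at 129.8, 64.4 and 38.3 CPM in Low F2, M3 and F6 (145, 96 and 3 UMIs) and at 172.5, 92.7 and 70.2 CPM in High, and the groups overlapped. Asns was at 93.1, 56.9 and 32.2 CPM in Low and at 113.6, 69.2 and 60.5 CPM in High, also with overlap. Phgdh was at 63.2, 24.0 and 0 CPM in Low and at 153, 73.0 and 61.3 CPM in High, higher in 3 of 3 pairs with overlap. Mthfd2 was at 20.4, 14.0 and 0 CPM in Low and at 48.2, 21.9 and 35.9 CPM in High, without overlap. Shmt2 and Chac1 did not overlap either, so that 3 of 10 genes were above in High, against 4.78% of 10458, and each of these had no UMI in the 21 cells of Low F6. In Krt12-led cells Phgdh was at 8.38, 16.8 and 9.47 CPM in Low and at 24.5, 34.0 and 20.5 CPM in High, without overlap. The low-count Chac1 (0 to 20 UMIs a library) was the other gene above in each High library there, that is 2 of 10 against 1.88% of 11166. Psat1 was at 15.6, 18.8 and 15.8 CPM in Low and at 16.3, 13.7 and 21.4 CPM in High.

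The change of the group difference between layers was tested directly. For superficial-like against basal-like cells it was -1.67 ± 0.39 for Mthfd2, -1.11 ± 0.31 for Asns and -2.06 ± 0.66 for Chac1, with unadjusted p-values of 0.00116, 0.00437 and 0.00970 and adjusted p-values of 0.659, 0.808 and 0.869. For Il33-led against basal-like cells it was -0.92 ± 0.29 for Psat1 and -0.78 ± 0.24 for Psph, with adjusted p-values of 0.316 and 0.320. No member passed, and 0.0082% (1 of 12191) and 0.296% (36 of 12172) of genes did. Without one library the 36 became 19 (Low F2), 18 (High F2), 26 (Low M3), 10 (High M3), 5 (Low F6) and 19 (High F6), and the 1 became 0 or 1, with no member among them. With the label as a block 0.148% and 1.96% of genes passed, and again no member. Of the pathway lists, genes that passed with the block for Il33-led against basal-like cells were Atf3 (0.68), Nupr1 (0.40), Mat2a (-0.71), Calr (-0.42) and the dissociation genes Fos (1.10), Fosb (0.72) and Egr1 (1.06). A dependence of the group difference on the layer was thus not shown for these genes at the threshold used.

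**Figure D4:**
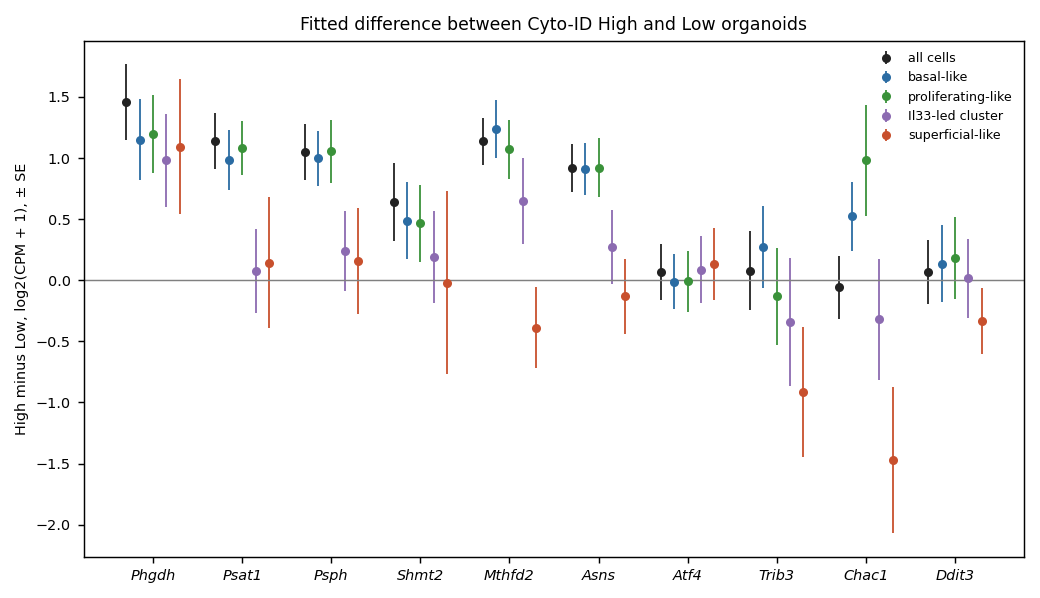
Fitted difference of Cyto-ID High minus Low on the log2(CPM + 1) scale with its SE (3 libraries per group) for each gene, over all cells, in 3 cell classes and in the Il33-led cluster. The enzymes lie between 0.46 and 1.46 over all cells, in basal-like and in proliferating-like cells, Atf4 lies near 0 throughout, and Chac1 is lowest in superficial-like cells at -1.47.

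Within basal-like and proliferating-like cells, 5 of the 6 synthesis enzymes rose with the scored cell-cycle phase, in both S and G2/M cells, whereas Asns, Atf4, Trib3 and Chac1 passed in neither comparison and Ddit3 fell in G2/M cells. Trib3 rested on 1 to 20 UMIs a library in S and 2 to 21 in G2/M cells. Chac1 rested on 3 to 22 and 0 to 22, so the fits say little about these genes. Cycling state may have been in view when the genes were chosen. Differences and p-values of the members by phase, in S and in G2/M cells, are therefore descriptions that support nothing further. Phases were scored on cells thinned to 1000 UMIs with 43 S and 54 G2/M genes, none of them a member. The phase groups are ranges of a score, since 67.7% of scored cells lay within 0.05 of a cut, and cells scored G2/M had more UMIs than cells scored G1 (medians of 10040 and 6792 in Low F2, for example).

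Mthfd2 rose most. It was at 6.41, 7.51 and 6.96 CPM in G1 cells of Low F2, M3 and F6 and at 14.1, 18.0 and 21.4 CPM in their G2/M cells. In High it was at 12.8, 14.1 and 11.7 CPM in G1 and at 38.5, 43.2 and 23.9 CPM in G2/M cells. The level was higher in 6 of 6 libraries, by 2.04 to 3.08 times, and the difference was 1.23 ± 0.15 on the log2 scale (limma, adjusted p = 1.9e-05).

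The 3 serine enzymes also rose in 6 of 6 libraries. Phgdh was at 37.1, 65.6 and 41.2 CPM in G1 and at 62.7, 89.1 and 52.5 CPM in G2/M cells of Low, and at 73.8, 143.1 and 53.9 CPM in G1 and at 165, 208.5 and 94.7 CPM in G2/M cells of High. The difference was 0.62 ± 0.10 for Phgdh, 0.86 ± 0.12 for Psat1 and 0.79 ± 0.10 for Psph, with adjusted p-values of 0.000551, 5.64e-05 and 1.97e-05. Shmt2 rose by 0.41 ± 0.09 (adjusted p = 0.00302), from 52.8 ± 17.6 to 73.7 ± 27.4 CPM (SD, n = 6).

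Asns was higher in G2/M cells in 5 of 6 libraries (0.27 ± 0.11, adjusted p = 0.124), and without Low F6 it passed (0.35, adjusted p = 0.0196). Atf4 was at 196 ± 40.4 CPM in G1 and 187 ± 44.0 CPM in G2/M cells (adjusted p = 0.232). Ddit3 fell by 0.44 ± 0.09 (adjusted p = 0.00242), lower in 6 of 6 libraries. With only cells of at least 1000 detected genes, Shmt2 (adjusted p = 0.0658) and Ddit3 (0.0588) no longer passed. So 5 of 10 genes rose and 1 fell, where 17.5% of 12299 genes were called (9.09% higher and 8.45% lower), and the median of the 10 was 0.34, against -0.06 over all genes; cycling state may have been in view when the genes were chosen, so nothing is read from the count.

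In S against G1 cells the same 5 enzymes rose in 6 of 6 libraries and none of the 10 was called lower, where 9.29% of 12275 genes were called (6.05% higher). Mthfd2 rose by 0.95 ± 0.14, Psat1 by 0.75 ± 0.10, Phgdh by 0.54 ± 0.08, Psph by 0.52 ± 0.09 and Shmt2 by 0.40 ± 0.07, with adjusted p-values of 7.05e-05, 1.29e-05, 0.000101, 0.000517 and 0.000394. Ddit3 (-0.19, adjusted p = 0.173) and Atf4 (-0.10, adjusted p = 0.186) did not pass, although Atf4 was lower in S cells in 6 of 6 libraries (0.899 to 0.955 times). With only cells of at least 1000 detected genes, Psph (adjusted p = 0.125) and Shmt2 (0.189) no longer passed. These are differences within libraries, and without the library as a block Mthfd2 alone still passed in G2/M cells and none in S cells.

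A difference between the groups in the rise with phase was tested directly and passed for no member. The difference of the G2/M rise, High minus Low, was 0.35 ± 0.19 for Phgdh, 0.30 ± 0.22 for Psat1 and 0.15 ± 0.31 for Mthfd2, with adjusted p-values of 0.823, 0.845 and 0.942, and 0.00813% of genes were called (1 of 12299), or 0.171% with the label as a block, again with no member but with Nupr1 of the pathway lists (-0.32, adjusted p = 0.0494). Within G1 cells alone, Psat1, Psph, Mthfd2 and Asns were above in each High library (4 of 10 genes, against 3.12% of 11625). Phgdh overlapped in unscaled levels, with High F6 below Low M3. Cells scored G2/M made up 9.24% to 17.2% of scored basal-like and proliferating-like cells in Low and 19.1% to 25.1% in High, and the part of that share in the levels over all cells was not tested.

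**Figure D5:**
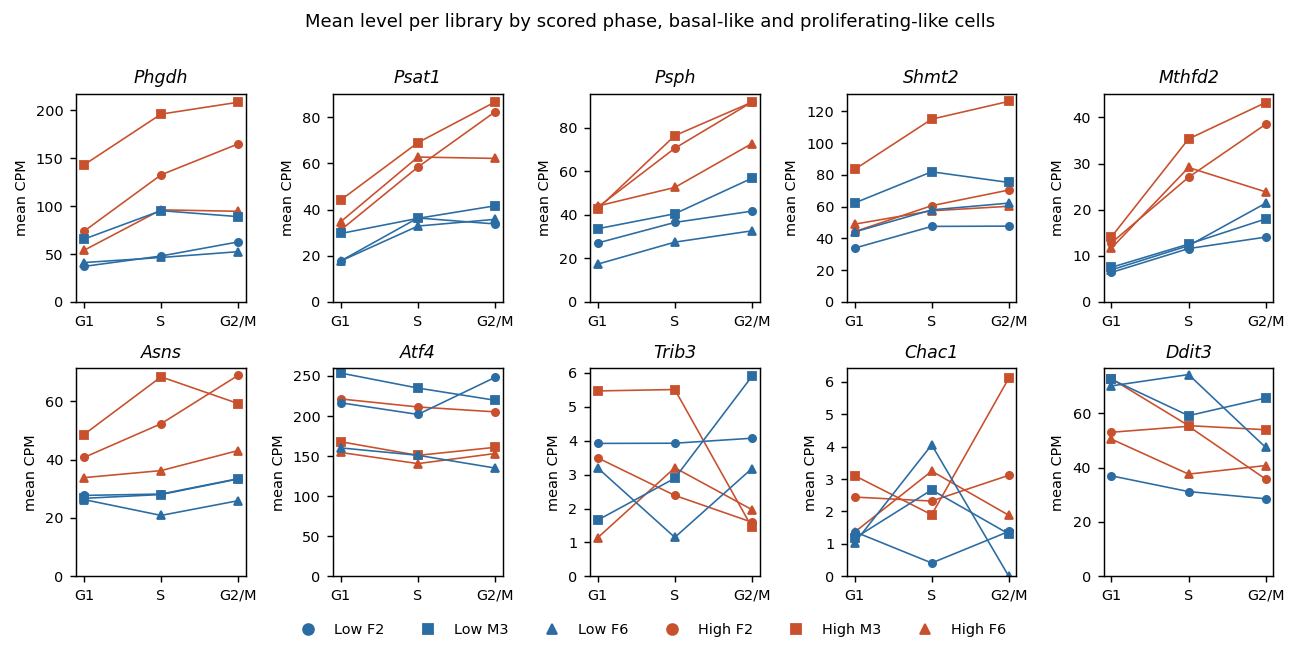
Mean CPM of each gene (vertical axes, from 0) in cells scored G1, S and G2/M among basal-like and proliferating-like cells, 1 line per library, blue for Cyto-ID Low and orange for Cyto-ID High. Mthfd2, Psat1, Psph, Phgdh and Shmt2 are higher in G2/M than in G1 cells in 6 of 6 libraries, and Ddit3 is lower in 6 of 6.

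Other genes of the pathway were read from 8 lists. None of their tested genes passed between High and Low over all cells or in basal-like, proliferating-like, superficial-like or Il33-led cells, without or with the label as a block. Over all cells, the median difference was 0.62 for 8 amino acid transporters, 0.34 for 8 enzymes of proline, aspartate and alanine metabolism, 0.27 for 15 one-carbon and glycine enzymes and 0.12 for 12 aminoacyl-tRNA synthetases, and -0.03 for 12 other ATF4 stress targets. It was 0.05 for 15 genes of eIF2 and its kinases, -0.13 for 15 genes of other arms of the unfolded protein response and 0.02 for 10 genes that respond to tissue dissociation. The summed CPM of the other ATF4 stress targets, of which Nupr1 was the most abundant, overlapped over all cells (4083 to 6618 in Low and 3592 to 4422 in High). It was lower in each High library in proliferating-like cells (2663 to 5397 in Low and 2159 to 2516 in High), suprabasal-like cells (3266 to 6945 and 1978 to 3219) and G2/M cells (2920 to 5854 and 2320 to 2778). Sums were also lower in each High library for synthetases in G1 and Krt12-led cells, one-carbon genes in Krt12-led cells, proline, aspartate and alanine enzymes in G1 cells and the other unfolded protein response genes in G2/M cells. The gaps in G1 cells were small. The lowest Low and highest High library were at 580.6 and 577 CPM for synthetases and at 365.1 and 364.1 CPM for the proline, aspartate and alanine enzymes. All sums were taken without scaling between libraries. In the scaled fit of basal-like cells the median differences of these lists were 0.15 and 0.20. The sum of dissociation genes was higher in High in superficial-like cells (2143 to 2702 and 2843 to 3266), and these sums were not tested. The most abundant genes of these lists gave differences over all cells within 0.39 of 0. Examples were the transporter subunit genes Slc3a2 (-0.20) and Slc38a2 (0.39), the synthetase gene Sars (0.10), the stress factor genes Nupr1 (-0.32) and Atf3 (0.01) and the chaperone gene Hspa5 (-0.25).

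In G2/M against G1 cells, 3 of 17 tested one-carbon genes rose, among them Tyms (2.31) and Shmt1 (0.83), which serve thymidylate synthesis, though Tyms is itself one of the phase genes. Of 8 transporters 1 rose (Slc7a11, 0.82), and of 12 synthetases 2 did (Cars, 0.47, and Gars, 0.39). Of 8 enzymes of proline, aspartate and alanine metabolism, 1 rose (Got1, which makes aspartate or uses it, 0.97) and 1 fell. Of 12 other ATF4 stress targets none rose and 4 fell: Atf3 (-0.45), Ppp1r15a (-0.47), Eif4ebp1 (-0.26) and Vldlr (-0.58). Ddit3 also fell, and 5 of the 6 synthesis enzymes, Asns excepted, rose. These list counts stand against 9.09% of all genes higher and 8.45% lower in this comparison, and nothing beyond the named genes is read from them.

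Genes of the dissociation response also fell in G2/M cells, 7 of 10, led by Fos (-0.58), Jun (-0.28), Fosb (-0.51) and Egr1 (-0.81), and their summed level was 2065 to 3442 CPM in G1 and 1735 to 2943 CPM in G2/M cells over the libraries. This fall moved with that of Ddit3 and Atf3, and its part in it was not tested. Of 15 genes of other arms of the unfolded protein response, 4 rose (Hsp90b1, 0.56, Creld2, 0.82, Manf, 0.29, and Pdia4, 0.27) and 1 fell (Dnajb9, -0.38). Among 15 genes of eIF2 and its kinases, Eif2s3x fell by 0.35.

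In S cells, where 6.05% of all genes were higher and 3.23% lower, 5 of 17 one-carbon genes rose, among them Tyms (2.29), Shmt1 (0.87) and the cytosolic folate enzyme gene Mthfd1 (0.49). Tyms is itself one of the phase genes, so its rise and its place in this count carry no weight. Of 12 other stress targets 4 fell: Nupr1 (-0.17), Atf3 (-0.22), Vldlr (-0.46) and Ppp1r15a (-0.21). Gars (0.42) and the chaperone genes Manf (0.26) and Sdf2l1 (0.52) rose, and 4 of 10 dissociation genes fell. None of the 8 transporters passed, and the most abundant, Slc38a2 and Slc3a2, were at -0.08 and -0.03.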

How the data were processed

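The members and the gene lists were chosen with earlier results of these data known. Single-cell RNA was sequenced from droplets and processed by the authors with Cell Ranger 6.0.0 and Seurat 4 on mm10 (GRCm38), per the submitters' processing notes. The annotation and counting settings are not given in the sources used here. The deposited values fit the natural log of 1 plus UMIs per 10000 in a cell, and UMIs were recovered from them as whole numbers within 0.01.

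Cells with at least 500 genes were integrated and clustered with Seurat 5.3.0 (2000 genes, 30 components, Louvain resolution 0.5). A cluster took the name of its highest marker class unless that score was not above 0, its leading genes went against it, or it was shallow. No doublet caller was run. Phases were scored with scanpy 1.11.5. Mean CPM per library was scaled by TMM (trimmed mean of M values), taken as log2(CPM + 1), filtered at 1 CPM in 3 profiles and tested with limma 3.58.1 (mean-variance trend, Benjamini-Hochberg, threshold 0.05), phases with the library as a block. All 10 genes are named throughout. Of each list, up to 4 passing genes per direction are named or, where none passed, the 2 most abundant (a few such genes are not reported here), and of the genes most like the members the 5 with the highest correlation. Deviations of libraries with the same label (from the titles) correlated at 0.76 (F2), 0.58 (M3) and 0.15 (F6), so the labels were taken as pairs, although Low F2 and High F6 also correlated at 0.17, and in basal-like cells at 0.25 against 0.15 for the F6 pair. Alternatives changed the pseudocount, filter, scaling, summing, cell filter, clustering, block, cluster weights and libraries. The fits were tested on simulated data.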

Additional observations from a re-analysis of the deposited data

Results flagged for a closer look

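Among basal-like, proliferating-like, superficial-like, Krt12-led and Il33-led cells, there were 3 cases in which all 3 label pairs moved one way in one cell class and the opposite way in another. The High minus Low difference of Chac1 was 0.4118 in basal-like and -1.3801 in superficial-like cells (mean over pairs, log2 scale), a change of -1.792 between the classes. Within basal-like cells, however, Chac1 was lower in High in 3 of 3 pairs in the U90926-led cluster and higher in 3 of 3 in the Btn1a1-led cluster. Tested as an interaction in the limma fit, this change was -2.06 ± 0.66 with an adjusted p of 0.869. Against Krt12-led cells, where the Chac1 difference was 1.2724 from 0 to 20 UMIs a library, the change was -2.6526 and was not tested. The Ddit3 difference was 0.2757 in Krt12-led and -0.2129 in superficial-like cells, a change of -0.4886 that was not tested. Suprabasal-like cells were left out because Low F6 held 21 of them, and there Chac1 and Trib3 were higher in High in 3 of 3 pairs, with no UMI of either in Low F6. Superficial-like cells of High F6 held 1 UMI of Chac1 and 18 of Ddit3.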

How the results depend on the processing

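Genes called between High and Low numbered 19 over all cells, and 5 with a pseudocount of 0.1, 0 without the low-value filter, 64 with the replicate block, 2 with equal cluster weights and 6 to 17 without one library. In basal-like cells 30 became 0 without the filter, 13 in cells of at least 1000 genes, 147 with the replicate block, 8 with equal cluster weights and 6 to 48 without one library. In proliferating-like cells 22 became 6 with the pseudocount, 0 without the filter, 10 with summed UMIs, 35 with the replicate block and 1 to 54 without one library. In superficial-like cells 2 became 0 with the pseudocount, without the filter, with summed UMIs and with the replicate block, 1 at either other resolution and 0 to 1 without one library. G2/M against G1 went from 2157 (1118 higher and 1039 lower) to 545 (493 and 52) without the library block. The balance of directions also moved, to 1365 higher and 790 lower with plain CPM and to 912 and 538 in cells of at least 1000 genes. S against G1 went from 1140 to 640 without the filter, 623 in cells of at least 1000 genes and 226 without the library block. The group difference of the G2/M rise went from 1 to 0 with the pseudocount or no filter, 2 with plain CPM or at resolution 1.0, 21 with the replicate block and 0 to 2 without one library. Where no filter gave 0, genes at an unadjusted p under 0.05 numbered 1355, 1112, 1116, 338 and 802 in limma, for all, basal-like, proliferating-like and superficial-like cells and the group difference of the G2/M rise. For the other counts of 0 given here they numbered 142 (pseudocount), 208 (summed UMIs), 409 (replicate block) and 72 to 887 (without one library) in superficial-like cells, and 602 (pseudocount) and 437 to 657 (without one library) in the G2/M group difference. The replicate block made calls of 3 members over all cells and 4 in basal-like cells, and changed no other call of a member. Mthfd2 in basal-like cells also passed at resolution 1.0 (1.44, adjusted p = 0.0464).

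No member past the threshold changed sign. With plain CPM, which moved the median of all genes by -0.10 (all), -0.16 (basal-like) and -0.15 (proliferating-like), Atf4, Trib3 and Ddit3 over all cells went to -0.049, -0.0061 and -0.045, Ddit3 to -0.037 in basal-like and -0.0063 in proliferating-like cells, and Shmt2 to 0.056 in superficial-like cells. In cells of at least 1000 genes, Chac1 went to 0.19 (all), Trib3 to -0.35 (basal-like), 0.022 (proliferating-like) and 0.47 (G2/M against G1), and in the group difference of G2/M Trib3 to 0.65 and Ddit3 to 0.31. Equal weights gave Chac1 0.13 (all) and Atf4 0.048 (basal-like). Summed UMIs gave Shmt2 0.26 (superficial-like), Trib3 0.080 (G2/M) and Ddit3 0.11 (its group difference), and the pseudocount gave Chac1 -0.30 (G2/M). At resolutions 0.3 and 1.0, superficial-like Shmt2 was 0.21 and 0.18, Mthfd2 0.18 and 0.089, and Asns 0.082 and 0.049, and Trib3 in S was -0.0067 at 1.0. At 0.3 and at 1.0 the superficial-like class also held a cluster led by Il33 (3740 and 2421 cells), which was unnamed at 0.5. Superficial-like minus basal-like levels at these resolutions were -0.43 and -0.34 for Psph, -1.69 (0.3) for Shmt2, -0.73 and -0.88 for Atf4 and -0.54 and -0.49 for Ddit3.

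Leaving out one library gave ranges that crossed 0. Atf4 ran from -0.11 to 0.22 (all), -0.15 to 0.13 (basal-like), -0.23 to 0.11 (proliferating-like), -0.038 to 0.26 (superficial-like), -0.13 to 0.27 (Il33-led), -0.053 to 0.19 (G2/M by group), -0.020 to 0.16 (Il33-led minus basal-like) and -0.12 to 0.23 (superficial-like minus basal-like). Trib3 ran from -0.28 to 0.39, -0.048 to 0.44 and -0.40 to 0.058 in the first 3 of these, -0.71 to 0.28 (Il33-led), -0.37 to 0.19 (G2/M) and -0.17 to 0.24 (S). Chac1 ran from -0.24 to 0.13 (all), -0.76 to 0.19 (Il33-led) and -0.10 to 0.26 (G2/M). Ddit3 ran from -0.17 to 0.22 (all), -0.23 to 0.37 (basal-like), -0.21 to 0.37 (proliferating-like), -0.29 to 0.23 (Il33-led) and -0.17 to 0.058 (G2/M by group). In superficial-like cells Psat1 ran from -0.32 to 0.57, Psph from -0.25 to 0.58 and Shmt2 from -0.80 to 0.83, and in Il33-led cells from -0.19 to 0.25, -0.0031 to 0.53 and -0.24 to 0.42. Superficial-like minus basal-like, Phgdh ran from -0.57 to 0.37 and Shmt2 from -1.09 to 0.33. Apart from what the superficial-like class and resolution show, the cause of these changes was not tested. Tests within suprabasal-like cells (21 in Low F6) and the filter of 1000 genes in superficial-like cells were not run. Depth limited Trib3 and Chac1 most.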
